A study of Mus musculus with 16 samples.

Results

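The receptors of R-spondin, the membrane ubiquitin ligases they act on and the Wnt receptors those ligases control were followed as 8 genes of the 24421 listed in both matrices: *Lgr4*, *Lgr5*, *Rnf43*, *Znrf3*, *Lrp5*, *Lrp6*, *Fzd5* and *Fzd7*. They were chosen by name, and each of the 8 was detected in both genotypes. R-spondins are secreted proteins that bind LGR4 or LGR5 together with RNF43 or ZNRF3. Left alone, these ligases mark Frizzled receptors and their LRP co-receptors for removal from the cell surface; when an R-spondin draws the ligase away, the receptors stay in place and a Wnt signal is stronger. In the small intestine *Lgr5* is the classical marker of the stem cells at the crypt base, and *Lgr5*, *Rnf43* and *Znrf3* are themselves raised by Wnt signalling.

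Cells came from crypt isolates of the small intestine of untreated outbred mice at postnatal day 16. The controls were wild-type (WT) mice, and the ROBO-Crainbow (ROBO) mice carried a multicolour cassette at the Rosa26 locus with human *RSPO3* and 2 fusions of *PTPRK* to *RSPO3*, opened by a Cre that the Villin promoter drives in intestinal epithelium. Recombination is a mosaic in which a cell takes 1 of these products or keeps only a membrane marker, and the matrices do not say which cell took which. The labels list 8 samples per genotype from 2 cartridges each, but cell names carry the genotype and not the library or barcode, so that each genotype is a single pool and nothing between genotypes could be tested over mice.

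A count here is a number of unique molecular identifiers (UMIs), that is, of captured 3′ transcript ends. The WT matrix held 1348 cells with 2682127 UMIs (median 1492 per cell) and the ROBO matrix 1249 cells with 2428435 UMIs (median 1610). Levels are UMIs of a gene summed over the cells of a class, per 10000 UMIs of that class and genotype. Intervals in brackets are exact 95% intervals for counting error alone, without any spread among mice or libraries. Levels of different genes are not compared, since capture of 3′ ends differs between genes.

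Clustering without the 8 genes gave 13 clusters. Of these, 11 were named from marker genes, with the ending -like, in 9 classes. Crypt cells here are the stem-like cluster (221 WT and 209 ROBO cells, led by *Cym*, *Igfbp4*, *Dmpk* and *Slc12a2*) with a pair of transiently amplifying-like clusters (355 and 312 cells), of which 1 was led by *Rn45s*, a ribosomal RNA transcript, at a median of 932 UMIs, and the other by *Aurkb*, *Rrm2* and *Top2a* at 2989. Of the listed markers, 5 of 14 were raised in the stem-like cluster. The *Rn45s* cluster had 4 of 20 raised and the *Top2a* cluster 20 of 20. The *Rn45s* cluster, with 223 WT and 180 ROBO cells, is thus named on few markers, yet it is part of the crypt values below. Villus cells are the middle and top enterocyte-like clusters (310 and 333 cells). *Gsdmc4*, *Reg1* and *Dmbt1* led the bottom enterocyte-like cells. Of the 2 unnamed clusters, the first was led by the stress and immediate-early genes *Cxcl10*, *Atf3* and *Fosb* and the second by *Myl7*, *Reg3g* and *Sult1a1*. Although it was labelled as crypt, the tissue thus also held villus enterocytes, 45 immune-like and 8 fibroblast-like cells.

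**Figure D1:**
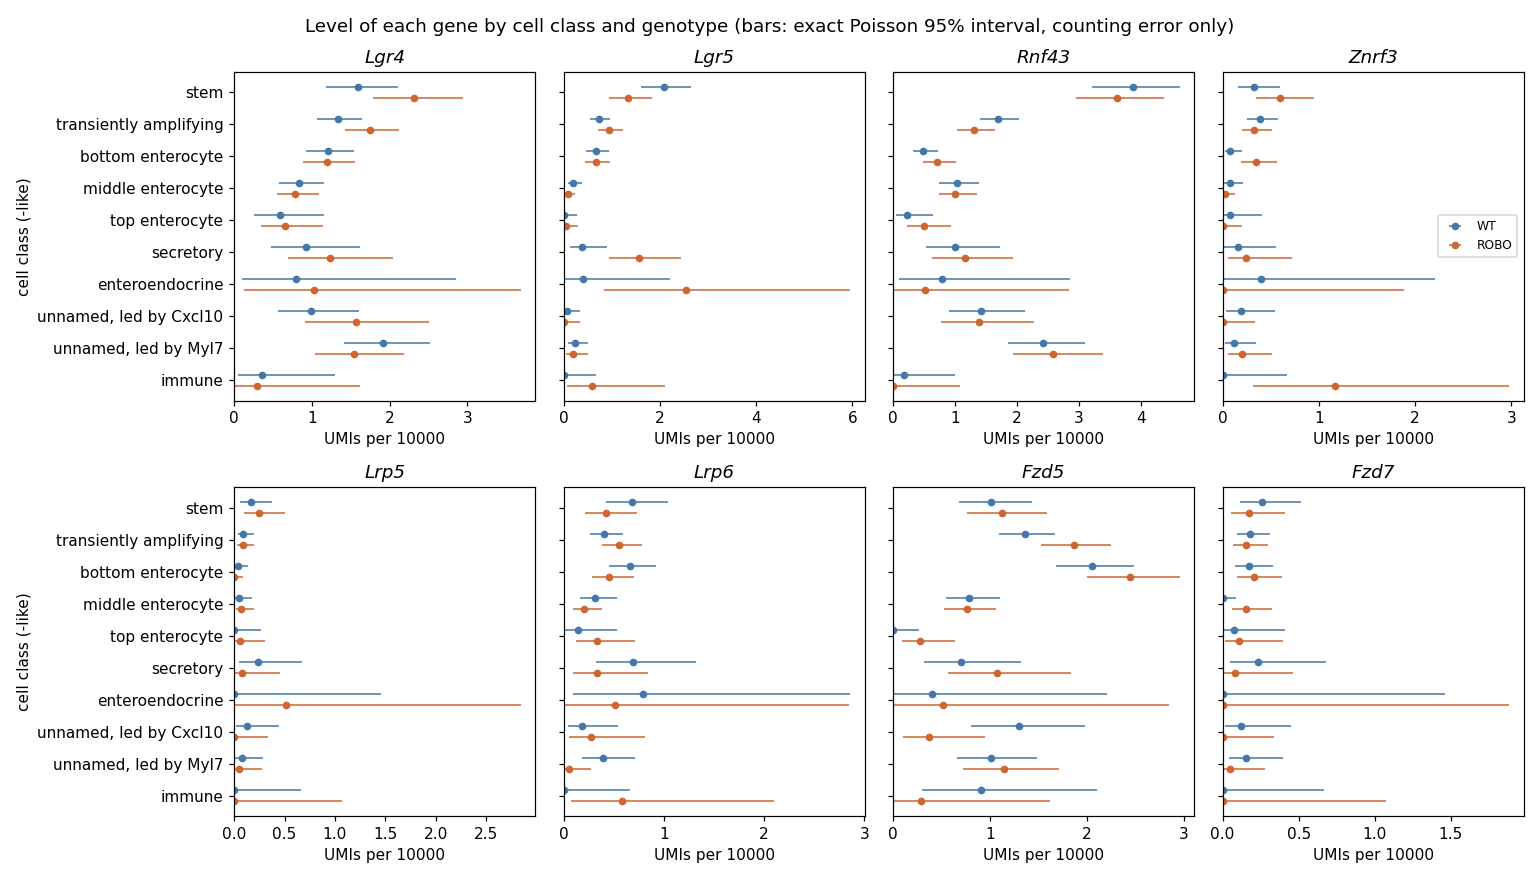
Level of each of the 8 genes (UMIs per 10000, x axis, separate scale per panel) in 10 cell classes (y axis) for WT (blue) and ROBO (orange); bars are exact Poisson 95% intervals. *Rnf43* stood highest in stem-like and *Fzd5* in bottom enterocyte-like cells in both genotypes, *Lgr5* in stem-like cells in WT only, and enteroendocrine-like and immune-like cells were too few to give narrow bars.

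Along the crypt to villus axis, each of the 8 genes had a higher level in crypt than in villus cells in both genotypes, and for 6 of them (*Lgr4*, *Lgr5*, *Rnf43*, *Znrf3*, *Lrp6* and *Fzd5*) the interval lay above 0 in both. How many of all genes are higher in crypt, or have such intervals, in both genotypes was not computed, so these counts are not read against a background. At least 2-fold higher in crypt were 5 of the 7 genes with 20 or more UMIs in WT and 6 of 7 in ROBO, against 30% and 30.9% of all genes; at least 2-fold lower was none, against 12.1% and 13%. The median log2 ratio of the 7 was 1.52 in WT and 1.37 in ROBO, beside 0.41 and 0.43 over all genes. *Lrp5* had under 20 UMIs over crypt and villus cells in each genotype and is left out of these counts. Bottom enterocyte-like cells, in which *Fzd5* was highest, belong to neither crypt nor villus here.

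**Figure D2:**
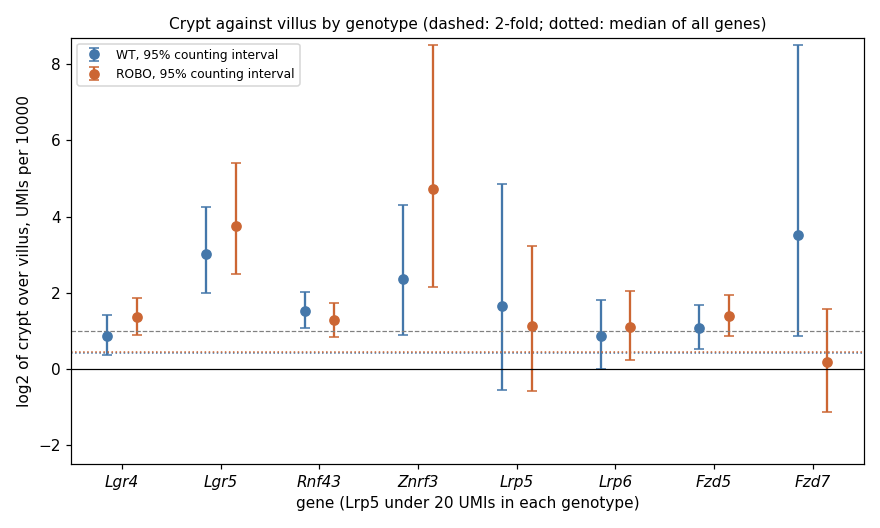
Log2 ratio of crypt over villus level (y axis) for each gene (x axis) in WT (blue) and ROBO (orange), with conditional exact 95% intervals; the dashed line marks 2-fold, the dotted lines the median of all genes, and the upper bars of *Znrf3* in ROBO and *Fzd7* in WT are drawn only to 8.5. *Lgr5* stood at 3.01 in WT and 3.76 in ROBO, and *Fzd7* at 3.51 and 0.18 on few UMIs.

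Of the R-spondin receptors, *Lgr5* (chr10:115450311-115587780, minus strand, GRCm38) had the steeper fall from crypt to villus, with intervals of the log2 ratio that did not overlap those of *Lgr4* (1.98 to 4.26 against 0.37 to 1.40 in WT, 2.49 to 5.42 against 0.90 to 1.87 in ROBO). It was read as 169 UMIs in 119 WT cells and 158 UMIs in 109 ROBO cells. Its WT level was 2.08 (1.60 to 2.65) in the stem-like class, 0.734 (0.543 to 0.970) in the transiently amplifying-like class, 0.679 (0.473 to 0.944) in bottom and 0.191 (0.0824 to 0.376) in middle enterocyte-like cells, while top enterocyte-like cells gave 0 UMIs. The ROBO levels in the same order were 1.33 (0.942 to 1.83), 0.95 (0.715 to 1.24), 0.663 (0.444 to 0.952), 0.0894 (0.0243 to 0.229) and 0.0547 (0.00139 to 0.305). Crypt cells thus held 8.05 times the villus level in WT, from 113 against 8 UMIs, and 13.6 times in ROBO, from 93 against 5.

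With both genotypes together, only 1 step between neighbours in the order of *Lgr5* levels was larger than counting error, that from bottom enterocyte-like cells (0.671) down to the unnamed cluster led by *Myl7* (0.218), a log2 ratio of 1.62 (0.65 to 2.75). The levels from stem-like cells (1.72) through enteroendocrine-like (1.34), secretory-like (0.957) and transiently amplifying-like cells (0.834) to bottom enterocyte-like cells did not differ between neighbours beyond their intervals. Classes further apart in this order did differ. The stem-like interval (1.40 to 2.09) lay above those of transiently amplifying-like (0.681 to 1.01) and bottom enterocyte-like cells (0.517 to 0.857). In WT alone the step from stem-like to transiently amplifying-like cells was also beyond counting error, at 1.5 (0.94 to 2.07), whereas in ROBO enteroendocrine-like (2.55, from 5 UMIs) and secretory-like cells (1.57) stood above stem-like ones, with no step between these neighbours beyond counting error. In this clustering most cells with an *Lgr5* UMI lay outside the stem-like class. Of the 119 WT cells with an *Lgr5* UMI, 37.8% were in the stem-like, 30.3% in the transiently amplifying-like and 16.8% in the bottom enterocyte-like class, and of the 109 ROBO cells 27.5%, 33.9% and 15.6%. The share depends on where the class is drawn: stem-like cells held 64 of the 169 WT and 38 of the 158 ROBO *Lgr5* UMIs here, 131 and 113 at a clustering resolution of 1.2, where the class had 413 and 420 cells, and 132 and 111 with the 8 genes kept in the clustering.

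*Lgr4* (chr2:109917647-110014257, plus strand), the second R-spondin receptor, was still read in every enterocyte-like class. Stem-like cells of WT stood at 1.59 (1.18 to 2.10) and transiently amplifying-like cells at 1.33 (1.07 to 1.64), and the bottom, middle and top enterocyte-like classes followed at 1.2 (0.922 to 1.54), 0.835 (0.582 to 1.16) and 0.584 (0.252 to 1.15). In ROBO they were 2.31 (1.79 to 2.94), 1.74 (1.42 to 2.12), 1.19 (0.888 to 1.56), 0.782 (0.545 to 1.09) and 0.657 (0.339 to 1.15). None of the 8 steps between neighbours in the order of classes passed counting error. The ratio of crypt to villus was 1.83-fold in WT and 2.59-fold in ROBO.

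A finer view came from ranking 2388 epithelial-like cells, without secretory-like and enteroendocrine-like ones, by the log ratio of middle and top enterocyte markers to stem markers, and cutting the rank into 5 equal parts. *Lgr5* was low from the third part on: its WT level was 2.06 in the fifth nearest the crypt, then 0.689, 0.198, 0.0648 and 0.0517, and in ROBO 1.59, 0.943, 0.0850, 0.147 and 0.0273. *Lgr4* went down by steps, in WT from 1.84 over 1.45, 1.17 and 0.972 to 0.594 and in ROBO from 1.98 over 1.84, 1.21 and 1.05 to 0.791. The ends differed 3.10-fold for *Lgr4* in WT and 2.50-fold in ROBO, while *Lgr5* rested on 111 against 2 and 77 against 1 UMIs. Between 21 and 68 cells lay within 0.1 of each boundary of the score.

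**Figure D3:**
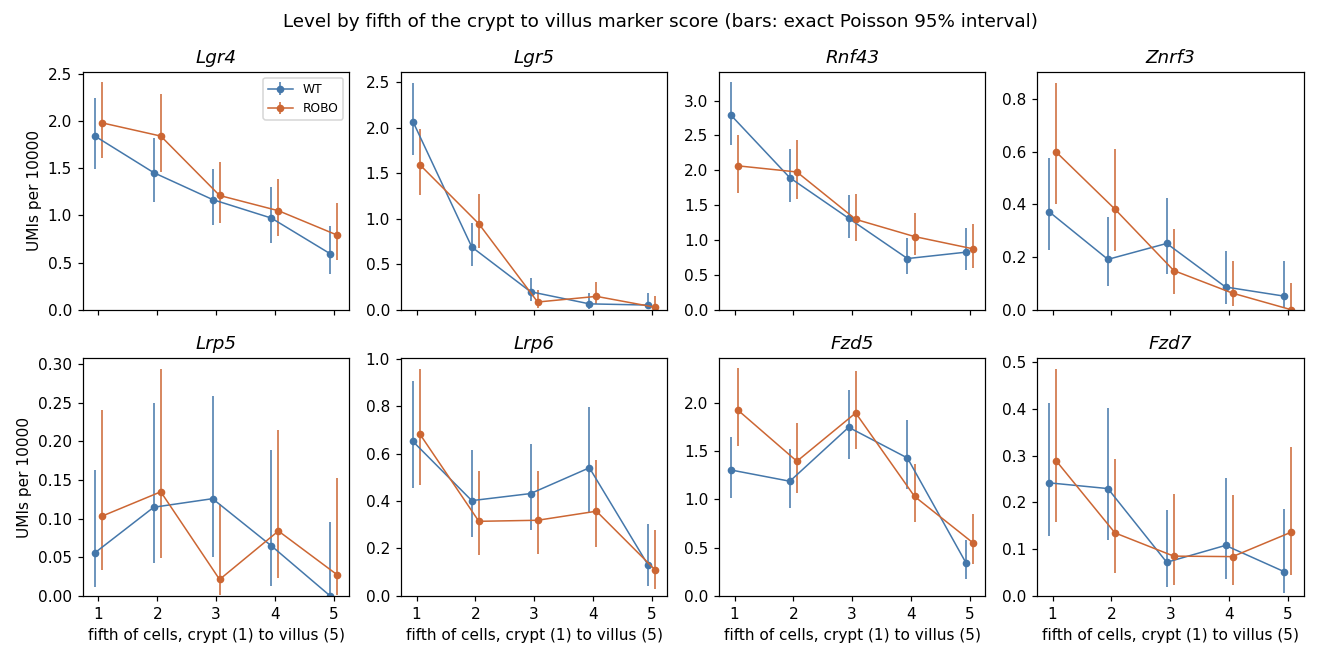
Level of each gene (UMIs per 10000, y axis) in 5 equal parts of 2388 cells ranked by marker genes from crypt (1) to villus (5), in WT (blue) and ROBO (orange), with exact Poisson 95% intervals. *Lgr5* was low from the third part on, *Rnf43* went from 2.79 in the first to 0.827 in the last part in WT and from 2.06 to 0.873 in ROBO, and *Fzd5* stood at 1.30 in the first and 1.74 in the third part in WT and at 1.92 and 1.89 in ROBO.

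The ligase *Rnf43* (chr11:87662722-87735539, plus strand) was highest in stem-like cells. There 119 WT UMIs put it at 3.86 (3.2 to 4.62). Transiently amplifying-like cells held 1.69 (1.39 to 2.03), and the bottom, middle and top enterocyte-like classes 0.485 (0.314 to 0.716), 1.03 (0.742 to 1.38) and 0.219 (0.0452 to 0.640). The ROBO values in the same order were 3.61 (2.94 to 4.37), 1.31 (1.03 to 1.64), 0.709 (0.482 to 1.01), 1.01 (0.733 to 1.35) and 0.493 (0.225 to 0.935). The order of these classes was the same in both genotypes: the bottom enterocyte-like class, nearer the crypt, stood below the middle one, though in ROBO their intervals overlap. The middle class joins 2 clusters on either side of the bottom class. That led by *Cubn* and *Lct* stood at 1.45 in WT and 1.47 in ROBO, and that led by *Sis* at 0.318 and 0.237. With both genotypes together stem-like cells (3.74) exceeded the unnamed cluster led by *Myl7* (2.49), and that cluster exceeded transiently amplifying-like cells (1.52), each by more than counting error.

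*Znrf3* (chr11:5276324-5444847, minus strand), the partner ligase, was sparse, with 53 UMIs in WT and 63 in ROBO. Crypt cells held 36 of them in each genotype, and villus cells 4 in WT and 1 in ROBO, levels of 0.369 against 0.0719 and of 0.416 against 0.0159. Stem-like cells had a level of 0.325 (0.156 to 0.597) for WT and 0.595 (0.347 to 0.953) for ROBO, and transiently amplifying-like cells 0.389 (0.254 to 0.570) and 0.328 (0.198 to 0.512). Among ROBO immune-like cells 4 UMIs were read in 2 of 19 cells, 3 of them in 1 cell, against 0 in 26 WT cells. The ROBO share was 10.5% (1.30 to 33.1%) in this class outside the epithelium and 6.33% (4.40 to 8.78%) in crypt cells, at median depths of 1750 UMIs in ROBO immune-like cells and 1106 and 1422 in stem-like and transiently amplifying-like cells. With both genotypes together it was 4.44% (0.543 to 15.1%) of 45 immune-like cells and 6.11% (4.76 to 7.69%) of crypt cells. With each cell thinned to 912 UMIs it was 0 of 36 (0 to 9.74%) and 2.75% (1.69 to 4.22%). Each immune-like interval takes in the crypt share, so few cells cannot tell the classes apart. Single *Znrf3* UMIs are not read as expression of that cell.

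Co-receptor *Lrp6* (chr6:134446476-134566965, minus strand) showed few steps between classes. In WT it stood at 0.682 (0.422 to 1.04) in the stem-like and 0.404 (0.266 to 0.588) in the transiently amplifying-like class, and at 0.659 (0.457 to 0.921), 0.310 (0.165 to 0.530) and 0.146 (0.0177 to 0.527) in the bottom, middle and top enterocyte-like classes. ROBO cells gave 0.420 (0.217 to 0.734), 0.553 (0.378 to 0.780), 0.457 (0.279 to 0.706), 0.201 (0.0919 to 0.382) and 0.328 (0.121 to 0.715). The only step between neighbours in the order of levels beyond counting error was from transiently amplifying-like to middle enterocyte-like cells, 0.473 to 0.254 with both genotypes together. *Lrp5* (chr19:3584828-3686564, minus strand), the other co-receptor, gave 22 UMIs in WT and 19 in ROBO. Its crypt and villus counts of 11 and 2 in WT and of 12 and 4 in ROBO gave log2 ratios of 1.65 (-0.55 to 4.86) and 1.13 (-0.59 to 3.22), so that no difference was detectable at this depth.

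Frizzled receptors bind Wnt itself. *Fzd5* (chr1:64730558-64737751, minus strand), the Frizzled of this pair found in more cells, with UMIs in 230 WT and 222 ROBO cells, was highest in bottom enterocyte-like cells in both genotypes. Bottom enterocyte-like cells held 2.06 (1.68 to 2.49) in WT and 2.45 (2.01 to 2.96) in ROBO, transiently amplifying-like cells 1.36 (1.10 to 1.67) and 1.86 (1.53 to 2.25), stem-like cells 1.01 (0.684 to 1.43) and 1.12 (0.767 to 1.58), and middle enterocyte-like cells 0.787 (0.542 to 1.11) and 0.760 (0.526 to 1.06). Top enterocyte-like cells gave 0 UMIs in WT and 5 in ROBO. The steps from bottom enterocyte-like down to transiently amplifying-like cells, 0.49 (0.20 to 0.77) on the log2 scale, and from there to the unnamed cluster led by *Myl7*, 0.58 (0.12 to 1.06), were both beyond counting error. Exons of *Fzd5* overlap a gene model on the opposite strand, Gm38058, by up to 619 bases; how the authors counted strands is not given in the sources used here.

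*Fzd7* (chr1:59482424-59486955, plus strand), a Frizzled tied to intestinal stem cells, was sparse at 39 WT and 34 ROBO UMIs. In WT 20 came from crypt and 1 from villus cells, and in ROBO 14 and 9. The ROBO villus UMIs were 7 in middle and 2 in top enterocyte-like cells, while WT had 0 in middle cells, which allows a level of up to 0.0716 by a limit of 3 counts. In villus cells these 10 UMIs gave a ROBO over WT log2 ratio of 2.99 (0.14 to 8.44), and whether a single library holds the 9 cannot be told from the cell names. No step between neighbours in the order of *Fzd7* levels passed counting error.

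*Rnf43* and *Fzd5* ran in opposite directions between the clusters of middle enterocyte-like cells, a pair of genes and of clusters picked out after the values were seen. Middle enterocyte-like cells formed 2 clusters, the first led by *Cubn* and *Lct*, genes of the suckling enterocyte (lactase is the milk sugar enzyme), and the second by *Sis* and *Aldh1a1*, with sucrase-isomaltase a gene of the weaned gut. *Rnf43* was 1.45 in the *Lct* cluster and 0.318 in the *Sis* cluster of WT, from 38 and 5 UMIs, and 1.47 and 0.237 in ROBO, from 41 and 4. *Fzd5* went the other way, at 0.534 and 1.21 in WT, from 14 and 19 UMIs, and at 0.359 and 1.42 in ROBO, from 10 and 24.

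On the log2 scale *Rnf43* had an *Lct* over *Sis* ratio of 2.19 (0.84 to 3.89) for WT and 2.64 (1.17 to 4.58) for ROBO, and *Fzd5* one of -1.18 (-2.29 to -0.11) and -1.98 (-3.21 to -0.87). No difference was detectable for *Lgr4*, at 0.20 (-0.87 to 1.34) and 0.04 (-1.02 to 1.15). For *Lrp6*, 4 and 9 UMIs were read in WT and 4 and 5 in ROBO, a ratio of -1.54 (-3.00 to -0.18) with both together. Median depth was 1612 and 1674 UMIs in the WT clusters and 1532.5 and 2182 in the ROBO clusters; its part in the difference was not tested.

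Within the transiently amplifying-like class *Rnf43* was higher in the cluster led by *Rn45s* than in the *Top2a* cluster, at 2.51 against 1.26 in WT and 2.45 against 0.731 in ROBO. *Fzd5* was 1.17 against 1.47 in WT, a log2 ratio of -0.33 (-1.04 to 0.34) within counting error, and 1.33 against 2.14 in ROBO, one of -0.69 (-1.39 to -0.04). Depth moved with this split, at medians of 910 and 3040 UMIs in WT and 963 and 2845 in ROBO, and its part was not tested.

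Expressed as the share of *Rnf43* among the UMIs of *Rnf43* and *Fzd5*, the clusters ranged widely. The stem-like cluster stood at 79.3% (72.0 to 85.5%) for WT and 76.3% (68.2 to 83.2%) for ROBO, the unnamed cluster led by *Myl7* at 70.5% and 69.3%, and the *Lct* cluster at 73.1% (59.0 to 84.4%) and 80.4% (66.9 to 90.2%). Bottom enterocyte-like cells were at 19.1% (12.7 to 26.9%) and 22.5% (15.8 to 30.3%), and the *Sis* cluster at 20.8% (7.13 to 42.2%) and 14.3% (4.03 to 32.7%). The *Rn45s* cluster had 68.2% (57.2 to 77.9%) and 64.9% (52.9 to 75.6%) and secretory-like cells 59.1% and 51.9%. The *Top2a* cluster had 46.2% (37.0 to 55.6%) in WT and 25.5% (17.6 to 34.6%) in ROBO, and the stress-led cluster went the other way, with 52.3% (36.7 to 67.5%) and 78.9% (54.4 to 93.9%); only in the first, of all clusters compared, do the intervals not overlap, with no correction for their number.

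**Figure D4:**
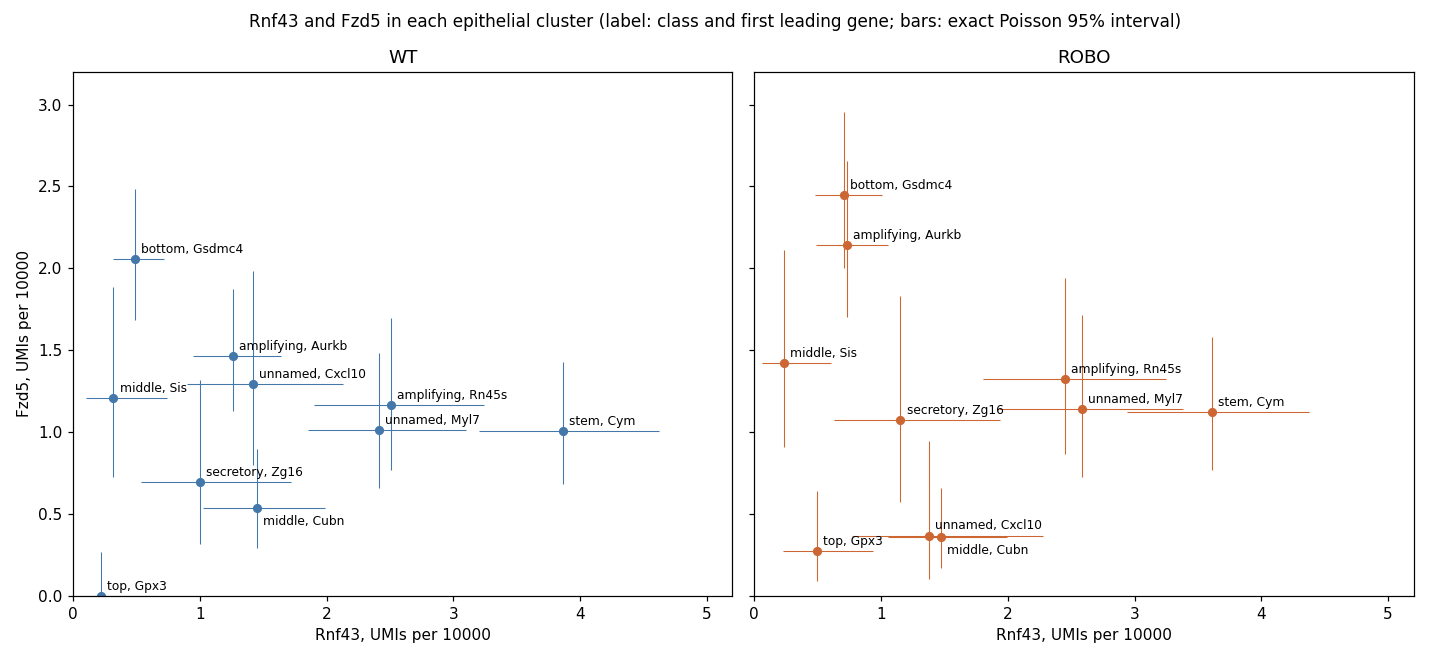
Level of *Rnf43* (x axis) against *Fzd5* (y axis), both in UMIs per 10000, in each of 10 epithelial clusters of WT (left) and ROBO (right); labels give the class and first leading gene, bars are exact Poisson 95% intervals, and the enteroendocrine-like cluster is left out. The stem-like cluster lies at the far right and the bottom enterocyte-like cluster at the top in both genotypes, and the *Sis* cluster at the left, at a *Fzd5* level of 1.21 in WT and 1.42 in ROBO.

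The comparison of ROBO with WT asks whether the receptors and ligases changed where R-spondin was produced in excess. Over all cells none was past 1.5-fold: 0 of 8 genes were higher and 0 lower, against 4.60% and 4.86% of all genes, and every one of the 8 intervals held 0. *Lgr4* had 324 UMIs in WT and 332 in ROBO, *Rnf43* 404 and 346, *Lrp6* 121 and 90, and *Fzd5* 323 and 328. The log2 ratios ran from -0.28 (-0.69 to 0.12) for *Lrp6* to 0.39 (-0.16 to 0.95) for *Znrf3*, with *Lgr5* at 0.05 (-0.28 to 0.37) and *Rnf43* at -0.08 (-0.29 to 0.13).

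In stem-like cells *Znrf3* was past 1.5-fold higher, as 1 of 6 genes with enough UMIs against 9.17% of all genes, and *Lgr5* and *Lrp6* were past it lower, as 2 of 6 against 13.4%. Only the interval of *Lgr5* left out 0, at -0.64 (-1.26 to -0.04) from 64 WT and 38 ROBO UMIs. The 14 stem markers together moved the same way, from 35.0 to 29.5 UMIs per 10000 in stem-like cells with 0 and 1 of them at 0, and the opposite way in transiently amplifying-like cells, from 17 to 22.4; their part in the *Lgr5* difference was not tested. With *Lgr5* and the other 7 genes kept in the clustering, stem-like cells numbered 471 and 442 and the log2 ratio of *Lgr5* was -0.12 (-0.50 to 0.25), and with 10 principal components it was -0.14 (-0.69 to 0.41). After thinning to 912 UMIs per cell, 14.1% (8.55 to 21.3%) of WT and 13.5% (8.06 to 20.7%) of ROBO stem-like cells held an *Lgr5* UMI, and after thinning to 1550 UMIs 23.1% (13.5 to 35.2%) and 18.2% (9.76 to 29.6%), against 20.4% and 14.4% without thinning. For *Lgr4* the values were 1.59 and 2.31, a log2 ratio of 0.54 (-0.02 to 1.10), and for *Znrf3*, from 10 and 17 UMIs, 0.87 (-0.34 to 2.16).

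**Figure D5:**
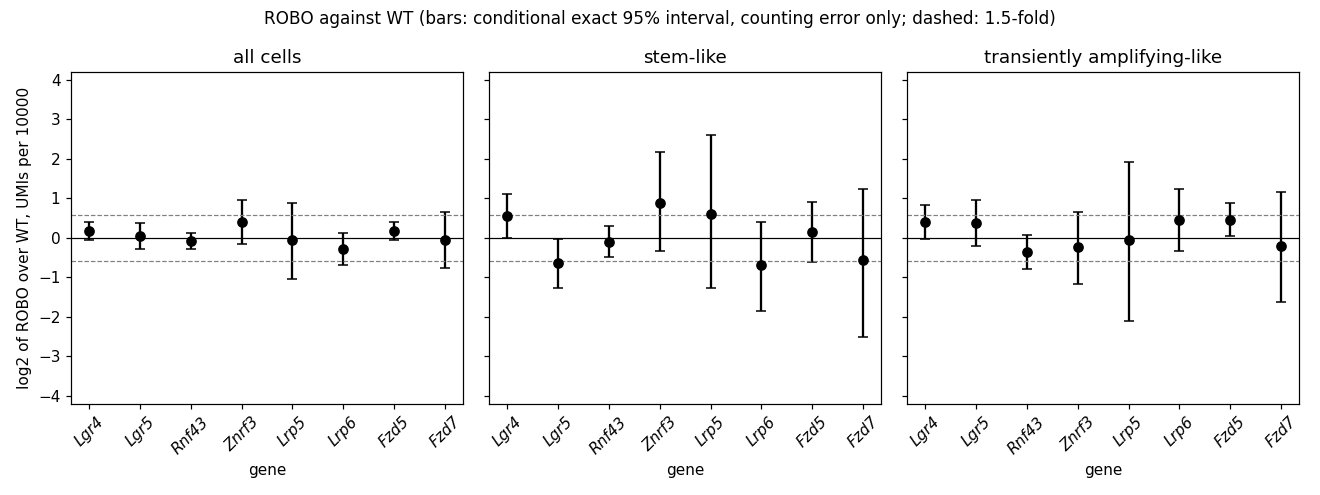
Log2 ratio of ROBO over WT level (y axis) for the 8 genes (x axis) in all cells, stem-like and transiently amplifying-like cells, with conditional exact 95% intervals; dashed lines mark 1.5-fold. All 8 intervals hold 0 over all cells, only that of *Lgr5* (-0.64) leaves it out in stem-like cells, and only that of *Fzd5* (0.45) in transiently amplifying-like cells.

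Among transiently amplifying-like cells 0 of 7 genes were past 1.5-fold higher and 0 lower, against 10.4% and 8.13% of all genes. *Fzd5*, at 91 UMIs in WT and 108 in ROBO, had a log2 ratio of 0.45 (0.04 to 0.87). Over crypt cells as a whole both *Fzd5*, 0.37 (0.01 to 0.74), and *Lgr4*, 0.45 (0.12 to 0.79), stood higher in ROBO, with 122 and 140 and with 138 and 167 UMIs. In each of the joined classes alone the *Lgr4* interval held 0, at -0.02 to 1.10 in stem-like and -0.04 to 0.82 in transiently amplifying-like cells. Under alternative settings it left out 0 in 2 of 13 for stem-like and in 7 of 14 for transiently amplifying-like cells. The share of all genes with an interval that leaves out 0 was not computed for joined crypt cells, and no alternative setting was run for them. For *Rnf43* crypt cells gave 2.38 (2.08 to 2.70) in WT and 2.07 (1.78 to 2.40) in ROBO, intervals that overlap.

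Over single classes and unnamed clusters, 8 of 78 intervals for ROBO over WT left out 0, with no correction for their number, against 4.67% of such pairs of a gene and a class over all genes. Few UMIs seldom allow such an interval; among pairs with at least 20 UMIs it was 4 of 33 against 9.68%, a share near that of all genes. Beside those of *Lgr5* and *Fzd5* above, *Lgr5* in secretory-like cells had 5 UMIs in 5 of 63 WT cells and 19 in 11 of 64 ROBO cells, a log2 ratio of 2.02 (0.55 to 3.80). There the 8 goblet markers summed to 708 and 891 UMIs per 10000, the 7 Paneth markers to 402 and 251, and the stem markers to 9.27 and 13.6, with 2 of 14 at 0 in each; their part was not tested. *Znrf3* in bottom enterocyte-like cells had 4 and 15 UMIs, 2.14 (0.49 to 4.19). *Fzd5* in the stress-led cluster had 21 and 4 UMIs, -1.81 (-3.82 to -0.25), and *Lrp6* in the cluster led by *Myl7* 10 and 1, -2.97 (-8.41 to -0.16). The remaining 2 were *Fzd7* in middle enterocyte-like and *Znrf3* in immune-like cells, each at 0 in WT.

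Shares of cells with a UMI depend on depth and were taken after thinning, which left out 364 WT and 285 ROBO cells. Of crypt cells, 18.1% (14.3 to 22.4%) in WT and 15.2% (11.6 to 19.3%) in ROBO held an *Rnf43* UMI, against 7.50% and 8.08% of villus cells; without thinning the crypt shares were 29.2% and 25.9%. *Lgr4* was found in 10.8% (7.84 to 14.4%) and 15.7% (12.1 to 19.9%) of crypt cells and *Fzd5* in 12.2% and 11.2%. At the deeper thinning of 1550 UMIs the genotypes stood otherwise, with *Lgr4* in 21.3% (16.0 to 27.4%) and 21.8% (16.3 to 28.1%) and *Fzd5* in 16.2% (11.6 to 21.8%) and 21.8% (16.3 to 28.1%), so that no order of the genotypes is read from these shares. *Lgr5* was found in 8.65% (5.99 to 11.99%) and 9.83% (6.94 to 13.4%) of crypt cells. Among villus cells it was found in 1 of 240 in WT (0.417%, 0.0105 to 2.30%) and 4 of 260 in ROBO (1.54%, 0.421 to 3.89%), and at 1550 UMIs in 4 of 137 and 1 of 166. Immune-like cells, taken as a class outside the epithelium without a test that they lack these genes, gave at the same depth 0 of 20 WT and 0 of 16 ROBO cells for *Rnf43*, *Lgr5* and *Fzd5*, and 1 of 20 and 0 of 16 for *Lgr4*, so few that the intervals reach 16.8% and 20.6% for a count of 0. Without thinning, 4 of 26 WT immune-like cells held a *Fzd5* UMI (15.4%, 4.36 to 34.9%), close to the 16.0% of WT crypt cells at lower median depths of 1048 and 1330 UMIs in their classes against 1815.5.

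Within stem-like cells, those with an *Lgr5* UMI (45 WT and 30 ROBO) were set beside those without (176 and 179). With both genotypes together *Znrf3* was 0.858 (0.428 to 1.53) with and 0.344 (0.197 to 0.559) without, a log2 ratio of 1.32 (0.07 to 2.52). *Lrp6* was 1.09 (0.597 to 1.83) and 0.408 (0.246 to 0.638), a log2 ratio of 1.42 (0.31 to 2.49), and *Rnf43* 3.90 (2.89 to 5.14) and 3.70 (3.16 to 4.29), one of 0.08 (-0.41 to 0.54). Cells with an *Lgr5* UMI were deeper, with a median of 1493 against 993 UMIs, and after thinning only 2 *Znrf3* and 1 *Lrp6* UMIs were left in the 35 cells with *Lgr5*, where the log2 ratio of *Lrp6* was -0.68 (-6.12 to 2.14).

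Other genes of the Wnt pathway came from 6 lists. Of 34 with enough UMIs, 13 were at least 2-fold higher in crypt in WT, against 30% of all genes, and 18 in ROBO, against 30.9%; 0 were lower in either, against 12.1% and 13%, and 11 were higher in both. The crypt target genes led, with 5 of 7 in WT and 6 of 7 in ROBO: *Ascl2*, the stem cell transcription factor, had 111 and 4 UMIs in WT and 119 and 7 in ROBO, *Cd44* 85 and 1 and then 71 and 5, *Ccnd1* (cyclin D1) 266 and 21 and then 190 and 15, *Myc* log2 ratios of 1.73 and 2.78, and *Sox9* 1.65 and 1.36. *Ascl2* and another gene of this list are among the stem markers that named the classes and are no independent finding. The list was made of crypt genes with earlier results of these data known, so its lead is no independent finding either. Of the feedback inhibitors 3 of 4 passed in each genotype. *Axin2*, part of the destruction complex and a standard Wnt target, stood at 1.35 (1.00 to 1.71) and 1.74 (1.40 to 2.09). *Sfrp5*, a secreted Wnt inhibitor that is also among those stem markers, had 44 against 1 UMIs in WT and 50 against 0 in ROBO. With the 0 set to 3 counts the ROBO ratio was 12.2-fold, and the lower limit of its log2 interval was 3.25.

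*Wls*, the carrier that brings Wnt proteins to the cell surface, was 5.98-fold higher in WT crypt and 9.60-fold in ROBO, and the heparan sulphate proteoglycan *Sdc4* 3.49-fold and 2.56-fold. Of the transducers 1 of 13 was past 2-fold in WT and 3 of 13 in ROBO, and *Amer1*, at 1.69 and 1.39, passed in both on 17 against 3 and 18 against 5 UMIs, with intervals that held 0. *Bcl9*, a partner of beta-catenin in the nucleus, stood at 1.24 (0.02 to 2.67) and 1.18 (0.06 to 2.45). Between genotypes in stem-like cells 3 of 29 pathway genes were past 1.5-fold higher and 2 lower, against 9.17% and 13.4% of all genes; only *Tle1*, a co-repressor, had an interval that left out 0, at -1.08 (-2.25 to -0.000503) from 25 and 11 UMIs.

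The mouse ligands for LGR4 and LGR5 were sparse. Mouse *Rspo1* was read as 3 UMIs in WT and 7 in ROBO, all in the 8 fibroblast-like cells, and *Rspo2* and *Rspo4* were at 0 in both matrices. *Rspo3* gave 24 UMIs in 21 WT cells and 16 in 15 ROBO cells, all epithelial-like and 0 in fibroblast-like cells, at 0.365 (0.119 to 0.852) and 0.219 (0.0596 to 0.561) in top enterocyte-like cells. The 4 WT and 4 ROBO fibroblast-like cells allow levels of up to 5.53 and 2.85 by a limit of 3 counts. Absence of *Rspo3* from fibroblasts is thus not read from the 0. The transgenes carry human *RSPO3* and no row of the matrices names it, so the mouse *Rspo3* row is no check of them.

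As a description of likeness, each gene's levels over the 9 epithelial-like classes and unnamed clusters of both genotypes (18 points that share libraries and differ in depth) were ranked against those of 7458 genes with at least 100 UMIs. Among the genes closest to *Lgr4* were *Rpl8* and *Rps12*, which encode ribosomal proteins, at a Spearman rho of 0.94 and 0.93, and among those closest to *Rnf43* were *Fau* and *Id3*, at 0.96 and 0.90. *Fzd5* lay closest to *Slc16a1*, *Hspa9* and *Canx*, at 0.93 each, *Lgr5* to *Usp19*, *Twsg1* and *Dach1*, at 0.89, 0.88 and 0.87, *Lrp6* to *Immp1l*, *Atp2c1* and *Cdo1*, at 0.87, 0.86 and 0.86, and *Znrf3* to *Car12*, *Slc35a1* and *X2700029M09Rik*, at 0.89 each. Among the genes themselves *Lgr4* and *Rnf43* were most alike at 0.76, followed by *Lgr5* and *Lrp6* at 0.67, while *Rnf43* and *Lrp6* stood at -0.10 and *Rnf43* and *Lgr5* at 0.23.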

How the data were processed

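Single-cell libraries of WT and ROBO intestinal crypt isolates were made with the SureCell WTA 3′ kit on a ddSEQ isolator. The authors built UMI counts in BaseSpace and deposited raw counts per gene and cell, 1 matrix per genotype, without normalization. The submitters' processing notes name mm10 and GRCm38; the aligner, annotation and cell calling are not given in the sources used here. The width of an interval depends on the UMIs of the gene, and for a share on the number of cells.

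Both matrices were clustered together in Seurat 5.3.0 (R 4.3.3) on 2000 variable genes with 20 principal components at a resolution of 0.8, cell cycle scores regressed out and the 8 genes left out (2 were among the variable genes). A cluster took the name of the list with the highest mean log2 fold, if at least 3 of its markers were raised 1.5-fold (0.1 added) in 10% of cells or more and at least 1 was among the 10 leading genes, a rule made with the clusters in view. The secretory-like cluster joins goblet and Paneth genes. Scrublet (scanpy 1.11.5, rate 5%) called 2 WT and 4 ROBO doublets, which were kept.

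Sums have exact Poisson, shares Clopper-Pearson and ratios conditional exact intervals at 95% (scipy 1.17.1). A gene was counted as past a fold (2-fold for crypt over villus, 1.5-fold for ROBO over WT) at 20 or more UMIs over both groups, with a count of 0 set to 3. No p-value was computed. Positions are from GENCODE M21 (GRCm38) by symbol. The 8 genes and all lists were chosen with earlier results of these data known. Named beside the 8 are the 3 genes most like each of those with at least 100 UMIs, pathway genes past 2-fold between crypt and villus in both genotypes or past 1.5-fold between genotypes in stem-like cells with an interval without 0, *Rspo1* to *Rspo4* and leading genes of clusters. Alternatives covered clustering settings, cell weights, minimum counts, folds and scaling with edgeR and DESeq2 factors. Some genes that the rule on likeness selected are not reported here.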

Additional observations from a re-analysis of the deposited data

How the results depend on the processing

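No paired analysis was possible because the cell names carry no sample number, and for the same reason no library was left out in turn. Of the counts of genes past a fold, those for crypt over villus were 3 in WT (5 as reported) at a minimum of 50 UMIs and 3 in ROBO (6 as reported) at a resolution of 0.4. The minimum of 50 UMIs leaves *Znrf3* (36 and 4) and *Fzd7* (20 and 1) out of the WT crypt over villus count. Between genotypes in stem-like cells it leaves out *Znrf3* (10 and 17) and *Lrp6* (21 and 12). In stem-like cells the 1 gene higher in ROBO became 2 without regression of phase scores and with no minimum, and 0 at a minimum of 50 UMIs and with the fold thresholds exchanged. The 2 genes lower became 1 without phase regression, with 1000 or 3000 variable genes, with equal weight per cell and at 50 UMIs, and 0 with the 8 genes kept in the clustering, at resolutions of 0.4 and 1.2, with 10 or 30 principal components, with cells of at least 500 genes, with doublets removed and with thresholds exchanged. In transiently amplifying-like cells the 0 genes higher became 2 with the 8 genes kept and at resolution 1.2, and 1 with 3000 variable genes, at least 500 genes, doublets removed or equal weight; the 0 lower became 2 with the 8 genes kept, at resolution 1.2 and with equal weight, 1 with 10 principal components, and 1 once the *Rn45s* cluster was dropped, which was chosen after seeing the data. At 50 UMIs the pathway genes between genotypes went from 1 higher and 1 lower to 0 and 0 over all cells, from 3 and 2 to 1 and 0 in stem-like cells and from 3 higher to 1 in transiently amplifying-like cells. The log2 ratio of *Lrp6* with *Lgr5* in the same cell turned from 1.42 to -0.68 after thinning. Apart from genes left out or let in by a minimum count, the cause of these changes was not tested. The intervals for crypt over villus of *Lgr4*, *Lgr5*, *Rnf43* and *Fzd5* lay above 0 in both genotypes under each of the 13 or 14 alternatives that gave a value. That of *Lrp6* left out 0 in only 10 of 14 in WT and 8 of 14 in ROBO, and that of *Znrf3* in 12 of 14 and 11 of 11. Between genotypes, the interval of *Lgr5* in stem-like cells left out 0 in 3 of 13 and that of *Fzd5* in transiently amplifying-like cells in 11 of 14. Ranked by Pearson correlation of log2 levels, the genes most like *Lgr4* were *Ankrd10*, *Nolc1* and *Myc*. Among the 3 most alike by this measure, *Lgr5* kept only *Usp19* and *Rnf43* only *Fau*. *Znrf3* kept only *Car12*, *Lrp6* only *Cdo1* and *Fzd5* only *Hspa9*.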
